A study of Mus musculus with 12 samples.

Results

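Integrins are the receptors by which cells hold on to the matrix around them and, in blood cells, to other cells. Each receptor is a pair of 1 alpha and 1 beta chain, and the pairing decides whether it binds collagens, laminins, the RGD motif of fibronectin and related proteins, or counter-receptors such as ICAM and VCAM on endothelium. Laminins are assembled from 1 alpha, 1 beta and 1 gamma chain and form the network of basement membranes to which epithelial, vascular, muscle and nerve cells attach. In healthy liver the sinusoids lack a continuous basement membrane, while bile ducts and larger vessels have one, and scarring liver is known to gain matrix and integrin-bearing inflammatory cells.

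The genes described here are all those of a mouse liver count table whose symbols name an integrin alpha chain, an integrin beta chain or a laminin chain. There were 37 of them among 24983 genes: 18 alpha chains, 8 beta chains and 11 laminin chains. Of these, 33 had enough counts to be tested, namely 15 alpha chains, 7 beta chains and all 11 laminins. Itga11, Itgad, Itgae and Itgb6 did not and are given by their counts alone.

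The 12 livers were those of C57BL/6J mice, 3 to a group, kept on their diets for 24 weeks, and the first group was fed chow. Mice of the remaining groups were given a diet that induces nonalcoholic steatohepatitis (NASH), with 40% of calories as fat and with saturated fat, trans-fat, fructose and cholesterol, and they carried minipumps. These delivered polyethylene glycol (vehicle), oleic acid (OA, 5 mg/kg/day) or, at the same dose, its nitrated form nitro-oleic acid (OA-NO2). No pump is mentioned for chow-fed mice, so effects of the diet and of the pump cannot be told apart. The question behind the series is how nitro-fatty acids act on fatty liver brought about by such a diet.

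Libraries held 8462590 to 20613777 counted reads. The lowest total belonged to chow replicate 1, and the next was 15972613. Levels are in CPM, that is counts relative to the library total after TMM scaling. A gene is said to have changed when edgeR's quasi-likelihood model gave it a p under 0.05 after Benjamini-Hochberg adjustment over 14469 genes. Errors of levels are SD with n = 3, errors of log2 fold changes are standard errors, and intervals are 95% without adjustment for the number of genes. Where 2 groups are said not to overlap, an exact permutation test of 3 against 3 could give no p under 0.1. The share of all genes without overlap was not counted. Since the tissue was sequenced whole, fewer cells of a type and less RNA per cell cannot be told apart. Together the members took 0.0356% to 0.0744% of a library's counts, so several rest on few reads. The 8 hepatocyte markers, the defining genes of the labelled tissue, were all detected and summed to between 47189 and 156256 CPM in every library. Some libraries stood apart from their groups over these genes: OA replicate 3 was the lowest OA library for 21 of the 33 tested members (40.7% of all tested genes), OA replicate 1 the highest of its group for 22 (33.7%), OA-NO2 replicate 1 the highest of its group for 25 (40.4%), and vehicle replicate 1 the lowest of its group for 19 (33.0%).

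In chow-fed liver the most abundant member per length of exon was Itgb1, the beta chain shared by most matrix-binding integrins, at 57.4 ± 10.7 CPM per kb. Itgb5, a partner of the av chain in RGD-binding receptors, followed at 14.8 ± 0.52 CPM per kb, and Lamb3, a laminin beta chain, at 5.06 ± 0.47. The next levels each differed from the following one by less than the SD of either, with Itgav at 2.33 ± 0.32, Itga5 at 2.16 ± 0.28, Itga1 at 2.00 ± 0.18 and Itgb2 at 1.95 ± 1.03 CPM per kb. In vehicle-treated mice on the NASH diet Itgb1 (49.9 ± 4.85) and Itgb5 (22.4 ± 2.49) kept the first places. Itgb2, the beta chain of leukocyte integrins, came next there at 6.67 ± 1.21 CPM per kb, and Lamb3 stood in place 15 at 0.912 ± 0.0861.

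The comparison of the vehicle group with chow asks how the diet, with the pump, bears on these genes. It gave 13 of 33 tested members as changed, 11 higher and 2 lower, where 19.3% of all tested genes changed, 11.1% higher and 8.16% lower. All 8 changed integrins were higher; of 5 changed laminins, 3 were higher, and Lama3 and Lamb3 were lower. The median log2 fold change was 0.65 over the members and -0.01 over all tested genes. OA over chow changed 8 members, 6 higher and 2 lower, against 8.56% of all genes (6.33% higher, 2.23% lower), with a median of 0.44. OA-NO2 over chow changed 1 member, Lamb3, which was lower, against 0.684% of all genes, with a median of 0.38. At an unadjusted p under 0.05 there were 20, 17 and 9 members in the 3 comparisons, against 33.7%, 25.7% and 18.8% of all genes. These comparisons share the chow libraries, so their values stand side by side and are not independent.

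The counts depended on single libraries, left out 1 at a time, and on scaling. For vehicle over chow, 7 members changed without chow replicate 1, 6 without chow replicate 2, 8 without vehicle replicate 2 and 7 without vehicle replicate 3, where 9.39%, 9.81%, 10.3% and 8.12% of all genes did. For OA over chow, 4 changed without chow replicate 1, 5 without OA replicate 1, 5 without OA replicate 2 and 12 without OA replicate 3, where 3.14%, 2.35%, 2.56% and 15% of all genes did. Scaling by library size alone moved the median of all genes to 0.51, 0.42 and 0.34 (log2) for vehicle, OA and OA-NO2 over chow, and then gave 23 changed members for vehicle over chow (21 higher, 2 lower), 18 for OA over chow (16 higher, 2 lower) and 3 for OA-NO2 over chow (2 higher, 1 lower). Of all genes it called 39.8% for vehicle (38.1% higher, 1.71% lower), 26.1% for OA (25.2% higher, 0.878% lower) and 7.79% for OA-NO2 (7.6% higher, 0.194% lower). Itgax, Itgb2, Itgal, Itga6, Lama3 and Lamb3 were called between vehicle and chow under every alternative run.

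**Figure D1:**
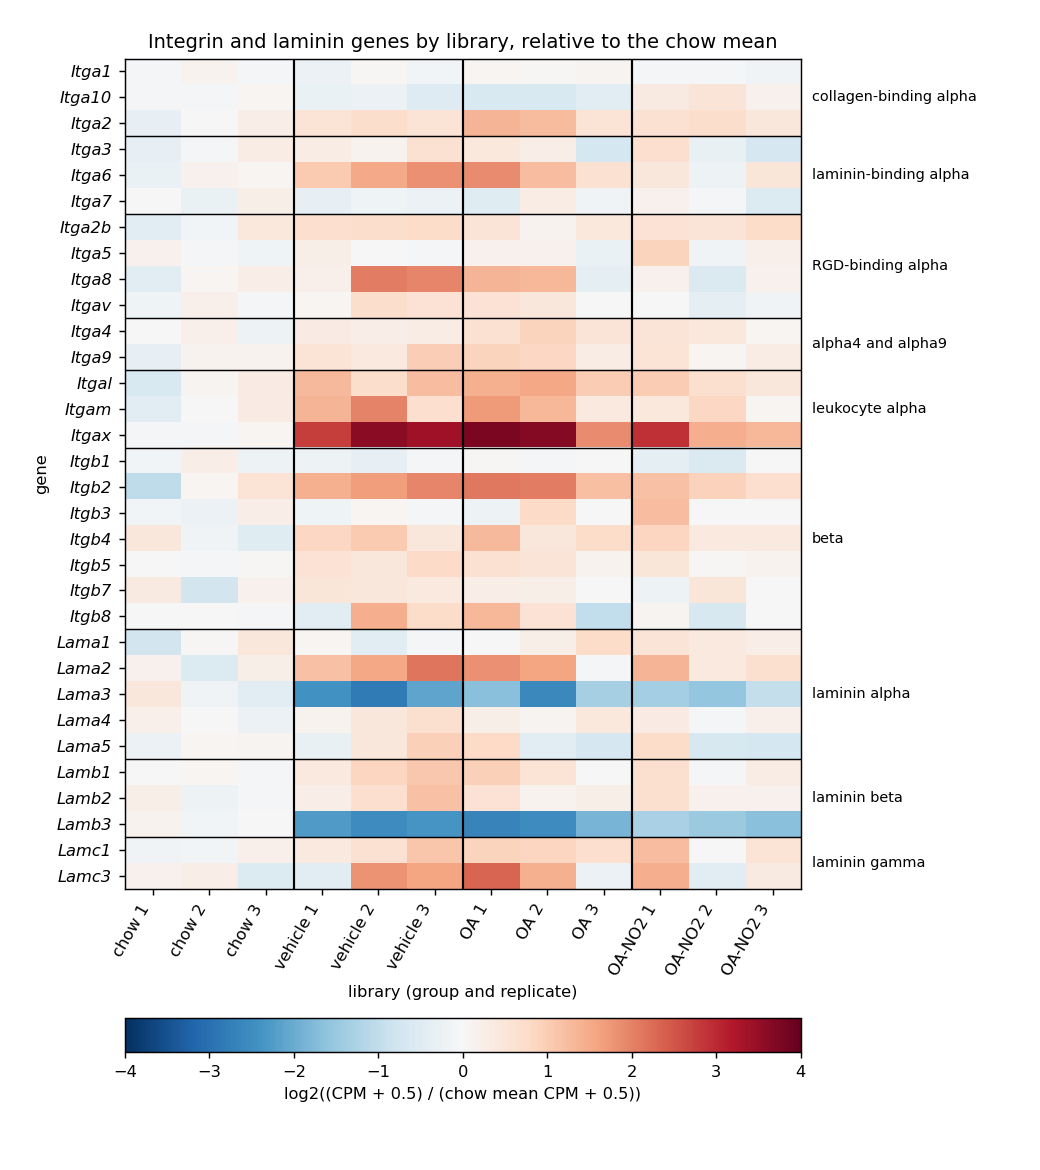
Each row is one of 32 tested integrin and laminin genes and each column a library; colour gives log2 of the CPM over the chow mean, with 0.5 added to both. Itgax is the row furthest above the chow mean in the NASH-diet libraries, and Lamb3 and Lama3 are below it in all 9 of them.

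The leukocyte integrins carry Itgb2 as their beta chain, and of the members called between vehicle and chow Itgax had the largest rise. Itgax, the CD11c chain of dendritic cells and some macrophages, stood at 0.624, 0.619 and 0.704 CPM in chow replicates 1 to 3, at 7.32, 13.5 and 11.5 in vehicle, at 15.2, 14.2 and 3.79 in OA and at 8.24, 2.64 and 2.42 in OA-NO2. All 9 NASH-diet libraries lay above all chow libraries, and OA replicate 3 lay far below the other OA libraries. Itgax was 16.3 times higher with vehicle than in chow (log2 fold change 4.03 ± 0.65, edgeR adjusted p = 0.00285) and 16.8 times higher with OA (4.07 ± 0.65, adjusted p = 0.00456). OA-NO2 over chow gave 2.75 ± 0.67 with an adjusted p of 0.0688, which did not pass. It passed in edgeR with no filter on low counts (adjusted p = 0.0144), in edgeR with scaling by library size alone (adjusted p = 0.0281) and in DESeq2 (adjusted p = 0.000502).

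Itgb2, the common beta chain, had 2.65, 6.26 and 8.90 CPM in chow, 16.8, 20.1 and 24.2 in vehicle, 27.2, 25.9 and 14.2 in OA and 14.2, 11.7 and 9.67 in OA-NO2. Each NASH-diet library exceeded each chow library, by least in OA-NO2. It rose with vehicle (1.71 ± 0.33, adjusted p = 0.00574) and with OA (1.85 ± 0.34, adjusted p = 0.00709), while OA-NO2 over chow gave 0.93 ± 0.33 (adjusted p = 0.171). Itgal, the alpha chain of LFA-1 on lymphocytes and other leukocytes, read 5.30, 9.08 and 10.7 CPM in chow, 21.3, 14.0 and 20.2 in vehicle, 23.0, 25.3 and 17.4 in OA and 17.3, 13.4 and 11.6 in OA-NO2. No NASH-diet library reached down into the chow range. The log2 fold change was 1.11 ± 0.25 for vehicle (adjusted p = 0.0109), 1.35 ± 0.25 for OA (adjusted p = 0.00814) and 0.72 ± 0.25 for OA-NO2 (adjusted p = 0.163).

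Itgam, the CD11b chain of monocytes, macrophages and neutrophils, was low, at 0.312, 0.619 and 0.896 CPM in chow, 2.38, 3.89 and 1.27 in vehicle, 3.11, 2.26 and 0.963 in OA and 0.978, 1.45 and 0.664 in OA-NO2. Vehicle and OA libraries lay above chow, and OA-NO2 overlapped it. Itgam rose with vehicle (1.92 ± 0.55, adjusted p = 0.0293), a call lost on removal of chow replicate 1 or 2 or vehicle replicate 2, where the adjusted p reached 0.108. Its values are uncertain, because 3450 bases (68.7%) of its exons also belong to the readthrough gene Gm49368 in GENCODE M21, and reads shared by both may be dropped; Gm49368 itself held 0 counts in 11 libraries and 2 in the other. The fourth partner, Itgad, had 0 counts in all chow libraries, 0, 2 and 3 in vehicle, 1, 1 and 0 in OA and 0, 0 and 1 in OA-NO2.

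As a share of the summed level per kb of these 4 partner chains, Itgal made up 82.9% ± 1.93 in chow and 50.8% ± 12.6 in vehicle. These shares take Itgam as counted, and any of its reads dropped for Gm49368 would lower its share and raise the others. The share of Itgax was 9.46% ± 3.07 in chow, 39.9% ± 10.1 in vehicle, 35.3% ± 11.8 in OA and 25.9% ± 10.3 in OA-NO2. The lowest Itgax share on the NASH diet, 19.1% in OA-NO2, was above the highest in chow, 12.999%. The 4 partner genes lie on the forward strand of chromosome 7 (GRCm38, GENCODE M21), with Itgal at 127296260 to 127335138, Itgam at 128062640 to 128118491, Itgax at 128129547 to 128150657 and Itgad at 128154376 to 128223816. Only 11056 bases separate Itgam from Itgax, and 3719 separate Itgax from Itgad.

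The promoters of the neighbours Itgam and Itgax, which both rose with vehicle, are shown as RefSeq gives them for GRCm38.p6, from 250 bases before to 50 bases after the start, at chr7:128062390-128062689 and chr7:128129300-128129599, both on the forward strand. Capitals mark matches on either strand to GAGGAA or GGAAGT, purine-rich cores of the kind that ETS-family factors bind, or to TGANTCA, the AP-1 element; matches to the first 2 words can overlap each other.
Itgam: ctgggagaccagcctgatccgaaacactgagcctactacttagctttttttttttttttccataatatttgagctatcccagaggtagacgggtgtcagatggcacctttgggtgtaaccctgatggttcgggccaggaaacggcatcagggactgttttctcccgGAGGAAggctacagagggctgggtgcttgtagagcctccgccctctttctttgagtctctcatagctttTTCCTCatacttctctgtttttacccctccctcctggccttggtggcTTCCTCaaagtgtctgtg
Itgax: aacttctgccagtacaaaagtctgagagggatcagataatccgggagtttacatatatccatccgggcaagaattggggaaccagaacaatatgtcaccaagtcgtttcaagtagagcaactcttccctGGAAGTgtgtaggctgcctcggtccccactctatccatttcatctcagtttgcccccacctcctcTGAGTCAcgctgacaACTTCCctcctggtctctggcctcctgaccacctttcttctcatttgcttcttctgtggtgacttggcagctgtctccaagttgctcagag
Itgam has 3 matches to GAGGAA, and Itgax has 2 to GGAAGT and 1 to TGANTCA. Of 32851 promoter windows of this length, 28.3% hold GAGGAA, 23.8% hold GGAAGT and 7.81% hold TGANTCA, so none of these words is rare. RefSeq windows were found for 23 of the 37 members.

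Markers of leukocytes moved with these genes, and their part in the result was not tested. All 5 genes of a common leukocyte list (none at 0 in a group) were higher with vehicle than in chow, led by Cd52 (1.95), Coro1a (1.84) and Laptm5 (1.82, all log2), and the list summed to 26.2 to 60.9 CPM in chow, 130 to 151 in vehicle, 82.4 to 165 in OA and 69.6 to 80.9 in OA-NO2. Of 13 monocyte-derived macrophage and dendritic cell genes, 9 were higher with vehicle, 8 with OA and 1, Mmp12, with OA-NO2, with sums of 65.97 to 129, 368 to 670, 228 to 739 and 153 to 263 CPM; Mmp12 (6.52), Cx3cr1 (4.16) and Trem2 (3.996) had the lowest p with vehicle. Of 11 Kupffer cell genes, 4 were higher with vehicle, among them C1qb (1.42), and 3 lower, among them Cd163 (-4.71) and Timd4 (-3.30), with sums of 291 to 590 CPM in chow, 656 to 780 in vehicle, 631 to 979 in OA and 558 to 750 in OA-NO2. Of 11 tested T and NK cell genes 3 were higher, Trac (2.08), Gzma (2.37) and Cd8a (1.85), and sums were 3.28 to 5.95, 9.01 to 10.8, 8.36 to 13.4 and 5.01 to 8.49 CPM. In the B cell list 1 of 6 was higher, Cd22 (1.72), and in the neutrophil list 0 of 5 tested, in edgeR. Calls of Cd22, Gzma, Cd8a and Trac were each lost on removal of at least 1 library, with adjusted p up to 0.117, 0.155, 0.150 and 0.0622.

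**Figure D2:**
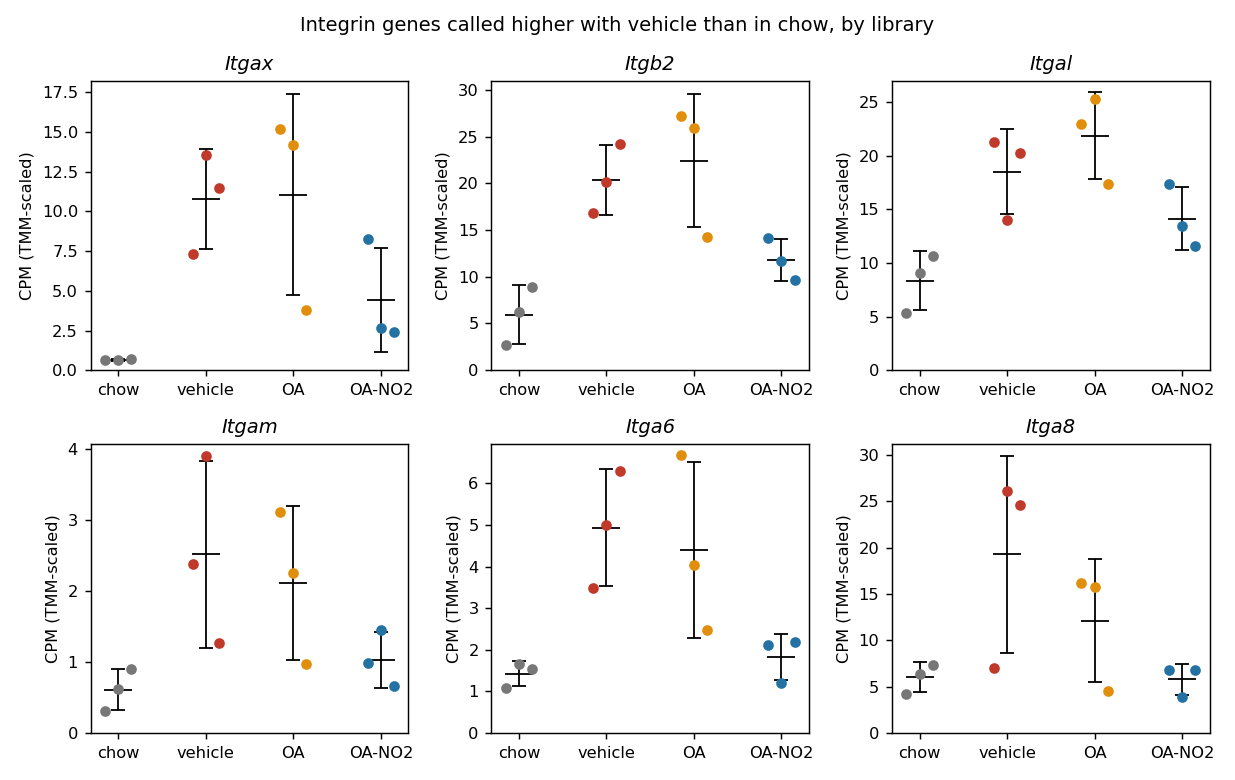
Points are libraries, horizontal lines group means and bars 1 SD (n = 3) of CPM (TMM-scaled) for 6 integrin genes that were higher with vehicle than in chow, by group. Itgax, Itgb2 and Itgal show no overlap between chow and any NASH-diet group; Itga6 and Itga8 in OA-NO2 overlap chow.

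The leukocyte integrin Itga4 pairs with Itgb1 or Itgb7 and binds VCAM1 and fibronectin, and of the 6 comparisons it passed the threshold in OA over chow. It read 5.30, 6.33 and 4.61 CPM in chow, 6.94, 6.66 and 6.80 in vehicle, 8.51, 10.4 and 8.01 in OA and 7.87, 7.46 and 5.80 in OA-NO2. Every OA library lay above every chow and vehicle library. OA over chow was 0.73 ± 0.19 (adjusted p = 0.0326), a call lost on removal of chow replicate 1 or 3 or OA replicate 1 or 2 (adjusted p up to 0.147), and OA over vehicle was 0.40 ± 0.18 (adjusted p = 0.975). About 8.04% of its exon bases overlap Cerkl on the other strand, and how strand was used in counting is not given in the sources used here. Itgb7, its other partner, had 1.60 ± 0.75 CPM in chow and 2.35 ± 0.10 in vehicle (0.61 ± 0.37, adjusted p = 0.257). Itgae, which pairs with Itgb7 on T cells in epithelia and binds E-cadherin, had only 1 to 12 counts in each library. Itga9, whose product binds tenascin-C and osteopontin, read 10.4, 14.7 and 14.7 CPM in chow, 19.4, 17.4 and 26.5 in vehicle, 24.9, 24.1 and 16.6 in OA and 19.6, 14.0 and 16.4 in OA-NO2. Vehicle and OA libraries lay above chow and OA-NO2 overlapped it. Its rise with vehicle, 0.65 ± 0.22, passed narrowly (adjusted p = 0.0498) and was lost on removal of any 1 of the 6 libraries compared (adjusted p up to 0.215).

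Of the platelet fibrinogen receptor, Itga2b had 1.22 ± 0.52 CPM in chow and 2.30 ± 0.07 in vehicle (0.84 ± 0.31, adjusted p = 0.0708), and its partner Itgb3 had 3.21 ± 0.68 and 3.10 ± 0.31 (-0.06 ± 0.40, adjusted p = 0.930). The Itga2b rise passed in edgeR without chow replicate 3 (adjusted p = 0.0306) and with library size alone (adjusted p = 0.00779). Among platelet genes, Pf4 was higher with vehicle (2.67) and Ppbp gave -0.15; only these 2 of 9 were tested, sums ran from 1.40 to 3.07 CPM in chow and from 4.05 to 6.02 in vehicle, and Gp1bb, Gp6 and Treml1 were at 0 in chow. Their part in the Itga2b values was not tested.

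Integrins that bind laminin gave 1 call among their alpha chains. Itga6, which pairs with Itgb1 or with Itgb4 of hemidesmosomes, read 1.09, 1.65 and 1.54 CPM in chow, 3.49, 5.01 and 6.30 in vehicle, 6.68, 4.05 and 2.47 in OA and 2.11, 1.19 and 2.17 in OA-NO2. Vehicle and OA libraries lay above all chow and all OA-NO2 libraries, and OA-NO2 overlapped chow. It rose 3.35-fold with vehicle (1.74 ± 0.39, adjusted p = 0.0103) and 2.996-fold with OA (1.58 ± 0.39, adjusted p = 0.0256), while OA-NO2 over chow was 0.31 ± 0.41 (adjusted p = 0.715). The OA call was lost on removal of any 1 chow library or of OA replicate 1 or 2 (adjusted p up to 0.142). Itgb4 rested on 5 counts in chow and 45 in vehicle (2.24 ± 0.80, adjusted p = 0.0647), with chow and vehicle overlapping. The Itgb4 rise passed in edgeR without chow replicate 1 (adjusted p = 0.0427) and with library size alone (adjusted p = 0.0186). Itga3, an epithelial laminin receptor chain, gave 0.38 ± 0.39 (adjusted p = 0.527), and Itga7, the muscle form, gave -0.27 ± 0.24 (adjusted p = 0.467).

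Among RGD-binding chains, Itga8, which is carried by mesenchymal cells and binds nephronectin, read 4.21, 6.40 and 7.36 CPM in chow, 6.99, 26.2 and 24.6 in vehicle, 16.2, 15.7 and 4.52 in OA and 6.79, 3.88 and 6.77 in OA-NO2. Vehicle replicate 1 and OA replicate 3 lay within the chow range and the other vehicle and OA libraries well above it. Vehicle over chow was 1.65 ± 0.50 (adjusted p = 0.0371), not kept on leaving out any 1 chow library or vehicle replicate 2 or 3 (adjusted p up to 0.118); 5.05% of its exon bases overlap an antisense gene. Itgb5 read 53.5, 50.4 and 53.8 CPM in chow, 78.0, 71.4 and 88.9 in vehicle, 80.1, 75.4 and 58.4 in OA and 74.4, 54.9 and 58.3 in OA-NO2. All NASH-diet libraries exceeded all chow libraries. The rise with vehicle was 0.60 ± 0.16 (adjusted p = 0.0221), lost on removal of chow replicate 1 or 2 or vehicle replicate 3 (adjusted p up to 0.0918).

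Itgav, the alpha chain of receptors that release active TGF-beta from its latent complex, had 25.02 ± 3.39 CPM in chow and 35.1 ± 7.68 in vehicle (0.48 ± 0.20, adjusted p = 0.0992). The Itgav rise passed in edgeR without vehicle replicate 1 (adjusted p = 0.0389) and with library size alone (adjusted p = 0.0077). Of its other beta partners, Itgb8 gave 1.03 ± 0.72 (adjusted p = 0.332) with vehicle libraries between 0.652 and 3.84 CPM, and the epithelial Itgb6 had 0, 0 and 5 counts in chow, 6, 24 and 10 in vehicle, 26, 5 and 2 in OA and 2, 4 and 1 in OA-NO2. Itga5, the main fibronectin receptor chain, did not pass (0.09 ± 0.24, adjusted p = 0.829), nor did Itgb1, whose 12 libraries lay between 157 and 284 CPM (-0.20 ± 0.18, interval -0.59 to 0.19, adjusted p = 0.455).

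Of the collagen-binding chains, Itga1 gave -0.10 ± 0.12 for vehicle over chow (adjusted p = 0.610) at 31.5 to 41.1 CPM in all libraries. Itga2 read 0, 0.138 and 0.256 CPM in chow, 0.419, 0.533 and 0.423 in vehicle, 1.12, 1.03 and 0.421 in OA and 0.463, 0.518 and 0.362 in OA-NO2. No NASH-diet library fell into the chow range, which rests on 6 counts in all. Itga2 rose with OA (2.39 ± 0.61, adjusted p = 0.0288), a call lost on removal of chow replicate 1 or 2 or OA replicate 1 or 2 (adjusted p up to 0.131). Vehicle over chow was 1.48 ± 0.64 (adjusted p = 0.120). Itga10, a cartilage collagen receptor chain, gave -0.66 ± 0.40 (adjusted p = 0.263) on 24 and 26 counts, and 33.5% of its exon bases are shared with a gene not in the table. Itga11, a collagen receptor chain of fibroblasts, had 0 counts in all chow and OA-NO2 libraries, 2, 3 and 14 in vehicle and 4, 4 and 3 in OA.

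Markers of stellate and mesenchymal cells were higher in some of the same comparisons as Itga8, and their part was not tested. Of 11 tested, 6 were higher with vehicle and 2 with OA, among them Des (1.497), Pdgfrb (2.06) and Acta2 (3.15), which did not pass on leaving out chow replicate 1 or 3 or vehicle replicate 3 (adjusted p up to 0.0561). Sums ran from 327 to 398 CPM in chow, 507 to 835 in vehicle, 400 to 784 in OA and 353 to 548 in OA-NO2, and no gene of the list was at 0. Of 12 endothelial genes 0 changed in edgeR in any comparison (Lyve1 1.03, Eng 0.41, Kdr -0.68 for vehicle over chow), with sums of 263 to 419 CPM in chow and 278 to 357 in vehicle.

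The laminins moved in both directions. Lama3 and Lamb3 encode an alpha and a beta chain that anchor epithelia through hemidesmosomes, best known from skin, and both fell with vehicle. Lamb3 read 36.8, 30.7 and 32.9 CPM in chow, 6.57, 5.44 and 6.09 in vehicle, 4.84, 5.48 and 8.85 in OA and 13.4, 11.7 and 10.2 in OA-NO2. The groups fell into separate ranges, with chow at the top, OA-NO2 below it, and vehicle and OA, which overlapped each other, at the bottom. Lamb3 was 5.53 times lower with vehicle than in chow (log2 fold change -2.47 ± 0.21, adjusted p = 9.88e-05), 5.24 times lower with OA (-2.39 ± 0.21, adjusted p = 0.000200) and 2.84 times lower with OA-NO2 (-1.51 ± 0.20, adjusted p = 0.00560). These 3 calls held under every alternative run.

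Lama3 read 9.05, 5.78 and 4.55 CPM in chow, 0.792, 0.480 and 1.10 in vehicle, 1.68, 0.666 and 2.29 in OA and 2.21, 1.86 and 3.08 in OA-NO2. Every chow library lay above every NASH-diet library. It was 7.86 times lower with vehicle (-2.97 ± 0.45, adjusted p = 0.00253) and 4.12 times lower with OA (-2.04 ± 0.42, adjusted p = 0.0117; 0.0519 without chow replicate 1), while OA-NO2 over chow was -1.41 ± 0.41 (adjusted p = 0.111). Per kb of exon, chow liver held 5.06 ± 0.47 CPM of Lamb3 and 0.60 ± 0.22 of Lama3, so the counted levels of these chains were far from equal.

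**Figure D3:**
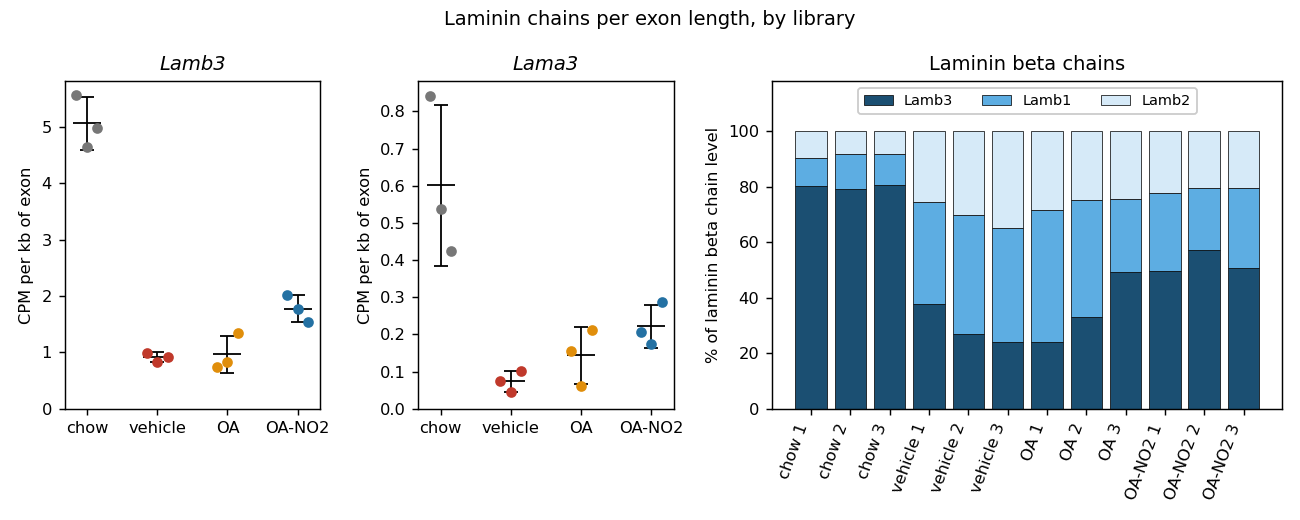
The first panels give CPM per kb of exon for Lamb3 and Lama3, with points for libraries, horizontal lines for group means and bars for 1 SD (n = 3); the last gives, for each library, the share of each beta chain in the summed level per kb. Lamb3 makes up 79.1% to 80.7% of the beta chain level in chow and 24.0% to 37.8% in vehicle.

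As counted, Lamb3 was the main beta chain gene of chow-fed liver, with 80.0% ± 0.79 of the summed level per kb of the 3 beta chains. Its share was 29.5% ± 7.31 in vehicle, 35.5% ± 12.7 in OA and 52.5% ± 4.10 in OA-NO2, and the groups' shares did not overlap except between vehicle and OA. These shares take Lamb3 as counted. Any reads of Hsd11b1, a gene on the other strand within its span, that were counted for Lamb3 would have raised them. The summed beta chain level was 5.87 to 6.94 CPM per kb in chow and 2.63 to 3.83 in vehicle. Among the 5 alpha chains Lama3 held 39.7% ± 11.7 in chow, 5.59% ± 1.68 in vehicle, 10.5% ± 4.95 in OA and 17.1% ± 5.31 in OA-NO2.

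In GENCODE M21 Lamb3 spans 193207699 to 193343878 on the forward strand of chromosome 1 (GRCm38). On the reverse strand within that span lie Hsd11b1, a highly expressed liver enzyme that regenerates active glucocorticoid, at 193221634 to 193264075, and G0s2, an inhibitor of triglyceride lipase, at 193272161 to 193273217. Of the 6612 exon bases of Lamb3, 130 (1.97%) fall inside the body of Hsd11b1 and 0 inside G0s2. No exon base of Lamb3 is shared with an annotated exon of either gene. Hsd11b1 was lower in vehicle (-1.86 ± 0.37, adjusted p = 0.00638) and in OA (-1.45 ± 0.37, adjusted p = 0.0290; lost on removal of chow replicate 1 or 2 or OA replicate 1 or 2, up to 0.129), and OA-NO2 over chow was -0.91 ± 0.37 (adjusted p = 0.207). For every 100 counts of Hsd11b1 there were 2.90 to 5.09 of Lamb3 in chow, 2.02 to 4.08 in vehicle, 1.77 to 2.72 in OA and 1.80 to 4.29 in OA-NO2. Without knowledge of the strand setting, a contribution of Hsd11b1 transcripts to the Lamb3 counts was not tested.

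The RefSeq start of Lamb3 lies inside the GENCODE span, beyond both neighbours. Its promoter is shown because Lamb3 is the member with the lowest p, at chr1:193301744-193302043 on the forward strand of GRCm38.p6, from 250 bases before to 50 after the start, with the single match to GAGGAA in capitals.
Lamb3: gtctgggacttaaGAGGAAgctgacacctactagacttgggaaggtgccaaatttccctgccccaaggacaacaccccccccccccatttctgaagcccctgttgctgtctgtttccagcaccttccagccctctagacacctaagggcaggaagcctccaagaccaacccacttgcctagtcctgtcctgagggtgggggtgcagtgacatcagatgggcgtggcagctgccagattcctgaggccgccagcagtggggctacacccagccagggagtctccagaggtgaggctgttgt
This window holds neither GGAAGT nor TGANTCA on either strand.

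The other laminin alpha chains include 1 call. Lama2, the chain of muscle, nerve and some mesenchymal basement membranes, read 0.780, 0.275 and 0.832 CPM in chow, 2.05, 2.82 and 4.52 in vehicle, 3.52, 2.87 and 0.602 in OA and 2.42, 0.984 and 1.27 in OA-NO2. Vehicle and OA-NO2 libraries lay above chow, and OA replicate 3 lay within it. Vehicle over chow was 2.35 ± 0.64 (adjusted p = 0.0234), lost on removal of chow replicate 1 or 2 or vehicle replicate 3 (adjusted p up to 0.0983). Lama1, the chain of early embryos and some adult epithelia, gave -0.20 ± 0.32 (adjusted p = 0.692), the vascular chain Lama4 gave 0.50 ± 0.22 (adjusted p = 0.134), and Lama5, widespread in adult epithelia and vessels, gave 0.51 ± 0.55 (adjusted p = 0.538).

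The broadly expressed beta chain Lamb1 read 7.02, 7.43 and 6.72 CPM in chow, 9.51, 13.1 and 15.6 in vehicle, 14.2, 10.5 and 7.10 in OA and 11.3, 6.84 and 8.76 in OA-NO2. Vehicle libraries lay above chow, while OA and OA-NO2 overlapped it. Its rise with vehicle, 0.85 ± 0.27 (adjusted p = 0.0409), was lost on removal of any 1 chow library, or of vehicle replicate 2 or 3 (adjusted p up to 0.152). Lamb2, the beta chain of vessel, muscle and kidney basement membranes, read 4.05, 2.89 and 3.14 CPM in chow, 4.10, 5.65 and 8.16 in vehicle, 5.25, 3.79 and 4.03 in OA and 5.56, 3.83 and 3.81 in OA-NO2. The lowest vehicle library nearly touched the highest chow library. Vehicle over chow was 0.86 ± 0.28 (adjusted p = 0.0488), lost on removal of any 1 chow library, or of vehicle replicate 2 or 3 (adjusted p up to 0.226). Lamc1, the usual gamma chain, had 11.7 ± 1.66 CPM in chow and 19.95 ± 5.25 in vehicle (0.76 ± 0.27, adjusted p = 0.0658), and Lamc3 gave 1.64 ± 0.86 (adjusted p = 0.195). The rise of Lamc1 passed in edgeR with no filter on low counts (adjusted p = 0.0427) and in DESeq2 (adjusted p = 0.0392). It also passed in edgeR with only the 2 groups compared (adjusted p = 0.0271) and with library size alone (adjusted p = 0.00834).

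Markers of epithelial cells called between vehicle and chow went both ways, hepatocyte genes lower and genes of the cholangiocyte and mesothelial lists higher. Their part in the laminin values was not tested. Of 8 hepatocyte genes, 6 were lower with vehicle, among them Cps1 (-1.62), Alb (-1.39) and Serpina1a (-1.17), 2 with OA and 0 with OA-NO2 in edgeR, and sums ran from 128142 to 156256 CPM in chow, 47189 to 61893 in vehicle, 56434 to 95533 in OA and 72647 to 105870 in OA-NO2. Of 9 tested cholangiocyte genes, 6 were higher with vehicle and 0 with OA or OA-NO2, with sums of 42.3 to 53.8, 70.8 to 96.8, 53.1 to 79.4 and 59.1 to 78.4 CPM. Among them Spint2 (0.61), Cftr (4.36) and Epcam (3.31) each lost their call on removal of chow replicate 1 or 2, Cftr and Epcam also on that of vehicle replicate 2 or 3, and Epcam on that of chow replicate 3, with adjusted p up to 0.0698, 0.0972 and 0.117. Of 5 tested genes of the mesothelial list 3 were higher with vehicle, Krt8 (1.40), Gpm6a (2.07) and Wt1 (2.42). Krt8 is also a keratin of hepatocytes and bile duct cells, so its rise cannot be assigned to mesothelium. Gpm6a and Wt1 lost their calls without any 1 chow library or vehicle replicate 2 or 3 (adjusted p up to 0.152 and 0.109). Sums of the list, which include Krt8, were 190 to 206 CPM in chow and 489 to 585 in vehicle.

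**Figure D4:**
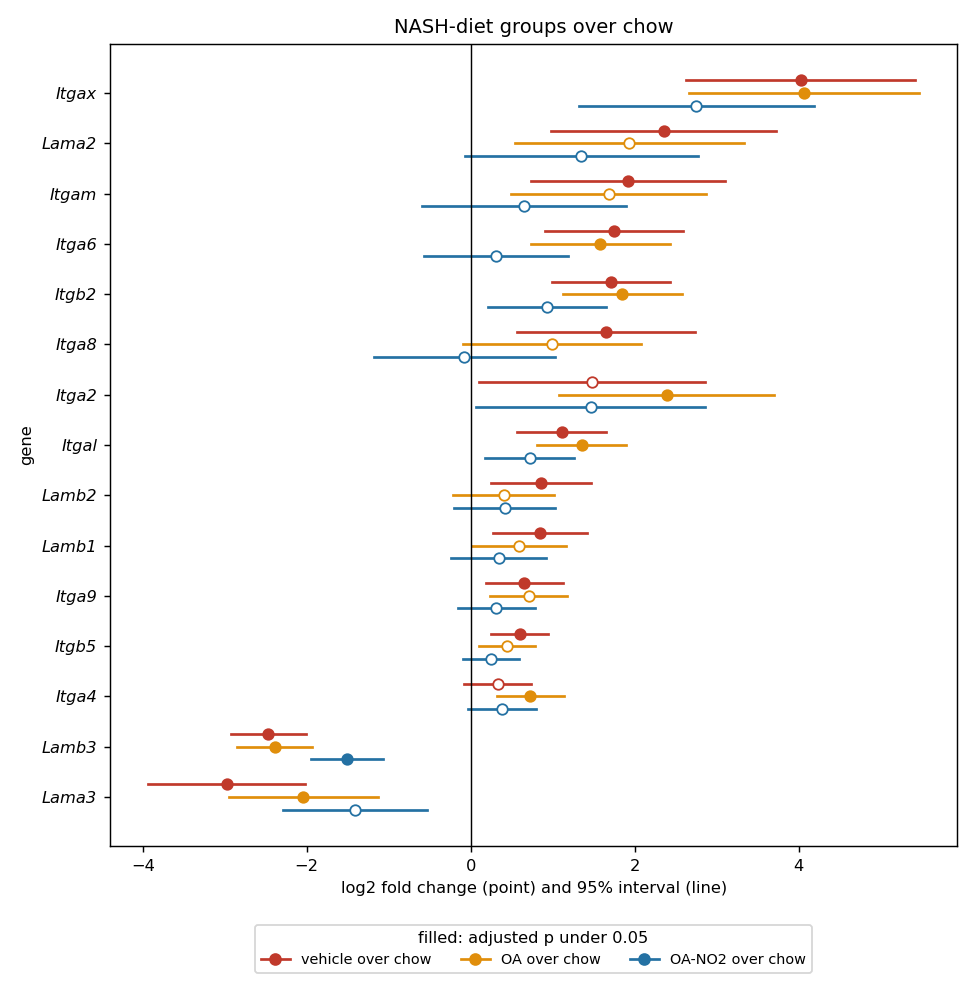
Log2 fold changes (points, filled where the adjusted p was under 0.05) and 95% intervals (lines) over chow for the 15 members called in at least 1 comparison with chow. Vehicle and OA points lie close together for Itgax (4.03 and 4.07) and Lamb3 (-2.47 and -2.39), and the OA-NO2 points lie nearer to 0 (2.75 and -1.51).

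The proteins that integrins and laminins work with were taken from fixed lists. Of 12 basement membrane partners, 3 were higher with vehicle (Col4a1 1.86, Col4a2 1.37, Nid1 1.89), 2 with OA and 0 with OA-NO2 in edgeR, with medians of 0.97, 0.60 and 0.14; Col4a2 and Nid1 were lost on removal of chow replicate 1, chow replicate 2 or vehicle replicate 3, and Nid1 also on removal of chow replicate 3 or vehicle replicate 2 (adjusted p up to 0.0724 and 0.0880). Of 20 tested interstitial and soluble ligands, 13 were higher and 2, Fga and Fgb, lower with vehicle, 11 were higher with OA and 0 with OA-NO2, with medians of 1.42, 1.13 and 0.60. Col1a1 (5.05), Col3a1 (3.83) and Col1a2 (3.42), the fibrillar collagen chains, had the lowest p. The summed level of the ligand list was nonetheless lower with vehicle, at 9032 to 11970 CPM against 13143 to 20272 in chow. Sums of the basement membrane list overlapped, at 613 to 855 CPM in vehicle and 657 to 773 in chow. Of 8 tested counter-receptors on other cells, Vcam1, the partner of Itga4, rose by 1.28 ± 0.30 with vehicle and 1.65 ± 0.30 with OA, Icam1, the partner of Itgal and Itgam, by 1.51 ± 0.42 and 1.63 ± 0.42, and Thy1 gave 0.70 ± 0.34 for vehicle (adjusted p = 0.164); the vehicle calls were lost on removal of chow replicate 2 for both, and for Icam1 also on removal of vehicle replicate 2 or 3 or of chow replicate 1 (adjusted p up to 0.0579 and 0.0856). Of 29 tested activators and scaffold proteins, which link integrin tails to actin, 5 were higher in the vehicle group, 4 in the OA group and 0 in the OA-NO2 group, with medians of 0.34, 0.34 and 0.29. Fermt3, the kindlin of blood cells, rose by 1.75 ± 0.27 with vehicle, Parvg, a parvin of blood cells, by 2.61 ± 0.42, and Actn1, an actin cross-linker, by 0.88 ± 0.16. Of 8 laminin receptors other than integrins, Sdc2 fell by 0.98 and Sdc1 fell by 0.56 on the log2 scale, and Bcam rose by 1.54; the Sdc1 call was lost on removal of any 1 chow library or vehicle replicate 2 or 3 and Bcam on removal of chow replicate 1 or 3 or vehicle replicate 3 (adjusted p up to 0.162 and 0.200), and with library size alone Sdc1 had an adjusted p of 0.847.

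Comparisons among the mice on the NASH diet ask what the infused fatty acids do, and with matched dose they set oleic acid beside its nitrated form. All 3 pairs were compared: OA with vehicle, OA-NO2 with vehicle and OA-NO2 with OA. In edgeR, with its default filter, none of the 33 members was called in any of the 3, where 0%, 0.0207% and 0.00691% of all genes were called. At an unadjusted p under 0.05 there was 1 member for OA over vehicle (3.90% of all genes), 10 for OA-NO2 over vehicle (15.8% of all genes) and 8 for OA-NO2 over OA (12.0%). DESeq2 called 0, 4 and 1 members, with 0%, 2.01% and 0.404% of all genes called. Limma-voom called 0 members in each, with 0%, 0.0207% and 0.00691% of all genes called. For OA-NO2 over vehicle edgeR with no filter on low counts called 3 members, Itga6 and Itga8 lower and Lamb3 higher, with 0.604% of all genes called. The median log2 fold change of the members was -0.03, -0.38 and -0.24 in the 3 comparisons, and that of all genes was 0.00376, 0.0162 and -0.00219. Scaling by library size alone moved the last to -0.09, -0.18 and -0.11.

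Lamb3 gave the lowest p for OA-NO2 over vehicle among the members, with 0.96 ± 0.21 (interval 0.51 to 1.41, adjusted p = 0.138). The OA-NO2 libraries held 10.2 to 13.4 CPM and the vehicle libraries 5.44 to 6.57. Over OA it was 0.88 ± 0.21 (interval 0.44 to 1.33, adjusted p = 0.313), and the adjusted p was 0.0145 without OA replicate 3, whose 8.85 CPM was the highest of the OA group. Without that library 0.875% of all genes were called over OA, against 0.00691% with all libraries. DESeq2 called Lamb3 in both comparisons, with adjusted p of 0.00712 and 0.0353, and edgeR with no filter on low counts called it over vehicle (adjusted p = 0.0385). OA over vehicle was 0.08 ± 0.21 (interval -0.38 to 0.53), which bounds a difference without showing that the values are equal. Lama3 was 1.56 ± 0.44 for OA-NO2 over vehicle (interval 0.61 to 2.52, adjusted p = 0.164), with no overlap between these groups, and 0.63 ± 0.42 over OA (interval -0.28 to 1.54), with overlap.

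Itga6 was 1.27 ± 0.37 lower on the log2 scale in OA-NO2 than in OA (log2 fold change -1.27, interval -2.07 to -0.48, adjusted p = 0.313), and -1.44 ± 0.37 against vehicle (interval -2.22 to -0.65, adjusted p = 0.156), with no overlap in either case. Itga8 was -1.73 ± 0.50 against vehicle (interval -2.79 to -0.66, adjusted p = 0.165) and -1.07 ± 0.49 against OA, where OA replicate 3 lay within the OA-NO2 range. Itgav read 22.1, 28.8 and 24.1 CPM in chow, 26.5, 41.1 and 37.8 in vehicle, 37.5, 34.6 and 25.2 in OA and 24.5, 19.1 and 22.7 in OA-NO2. The OA-NO2 libraries lay below all vehicle and all OA libraries, and the log2 fold changes were -0.67 ± 0.19 and -0.55 ± 0.20 (adjusted p = 0.167 and 0.348). Itga10 was higher in each OA-NO2 library than in any other, at 0.785 to 1.14 CPM against 0.255 to 0.361 in OA (1.72 ± 0.39, interval 0.88 to 2.57, adjusted p = 0.313), on 54 and 16 counts.

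For the leukocyte integrins, Itgb2 was -0.92 ± 0.32 in OA-NO2 over OA (interval -1.60 to -0.24, adjusted p = 0.347) and -0.78 ± 0.31 over vehicle (adjusted p = 0.258), with no overlap in either. Itgal was -0.63 ± 0.24 over OA (interval -1.15 to -0.11, adjusted p = 0.357), without overlap. Against vehicle the Itgal libraries overlapped, at 11.6 to 17.3 CPM in OA-NO2 and 14.0 to 21.3 in vehicle. Itgam in OA-NO2, at 0.664 to 1.45 CPM, overlapped both vehicle (1.27 to 3.89) and OA (0.963 to 3.11). Itgax was -1.32 ± 0.50 over OA (interval -2.39 to -0.24, adjusted p = 0.353) and -1.27 ± 0.50 over vehicle (adjusted p = 0.245), with overlap through OA-NO2 replicate 1 and OA replicate 3. OA over vehicle was 0.14 ± 0.31 for Itgb2 (interval -0.52 to 0.81), 0.24 ± 0.24 for Itgal (-0.27 to 0.76) and 0.04 ± 0.48 for Itgax (-0.98 to 1.07), intervals wide enough to hold changes of either sign.

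Among the marker lists, 1 gene was called in these comparisons. Cd163, a scavenger receptor of resident macrophages, had 0.638 ± 0.341 CPM in vehicle, 1.35 ± 0.71 in OA, 18.4 ± 3.81 in OA-NO2 and 16.7 ± 1.90 in chow, with log2 fold changes of 4.85 ± 0.38 for OA-NO2 over vehicle (adjusted p = 9.81e-05) and 3.76 ± 0.35 over OA (adjusted p = 0.000850). The Kupffer cell list, which holds Cd163, had a median log2 fold change of -0.16 for OA-NO2 over vehicle and -0.45 over OA. Cd163 thus went against the median of its own list. In OA-NO2 over vehicle the monocyte-derived macrophage list had a median of -1.32, the common leukocyte list -0.99, the cholangiocyte list -1.78 and the hepatocyte list 0.60, with 0 genes of these called in edgeR. The ligand list had a median of -0.64, the basement membrane list -0.69 and the activator list -0.10, with 0 called. The part of these cell types in the members' values was not tested.

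**Figure D5:**
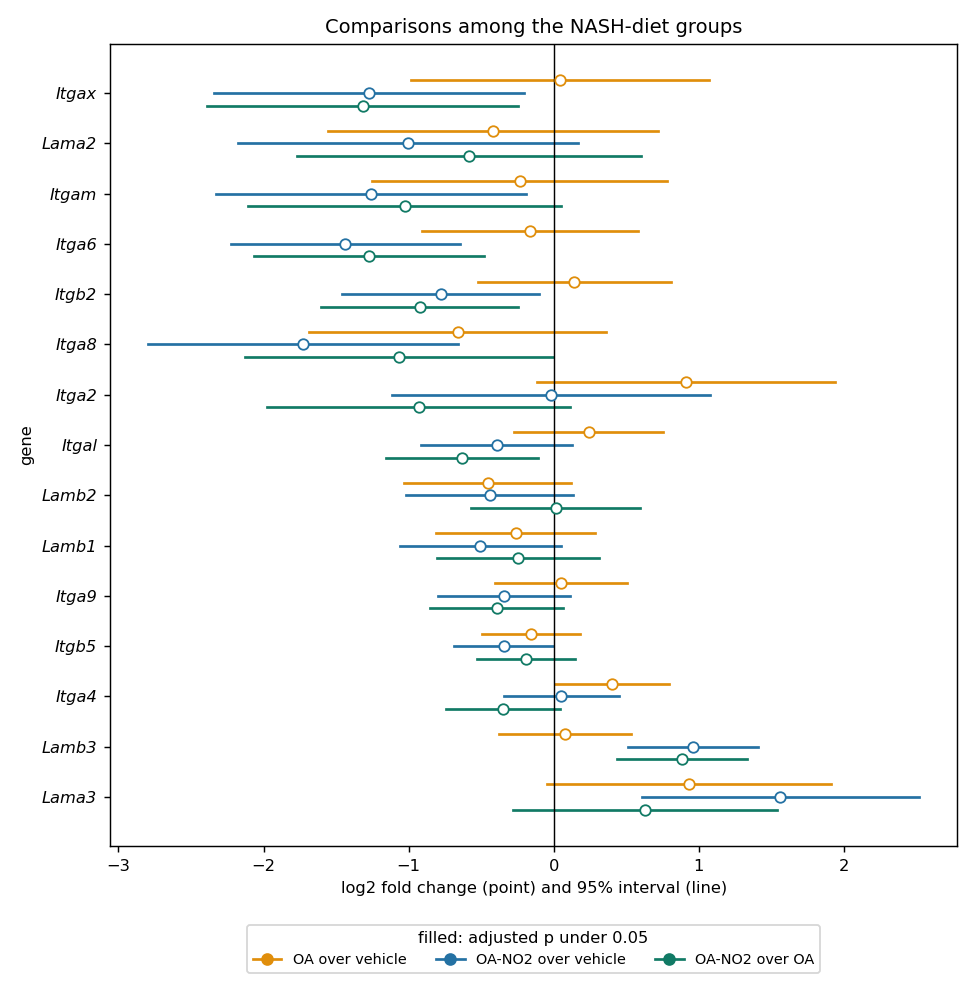
Log2 fold changes (points) and 95% intervals (lines) among the NASH-diet groups for the members called in at least 1 comparison with chow; open points mark an adjusted p of 0.05 or more. All points are open, and the intervals for Lamb3 lie above 0 for OA-NO2 over vehicle (0.51 to 1.41) and over OA (0.44 to 1.33). The members were chosen by calls that used the same NASH-diet libraries, so the points are not independent of that choice.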

How the data were processed

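Liver RNA of 12 mice was sequenced, 1 library per animal. Per the labels' protocols, the KAPA mRNA HyperPrep kit was used, read quality was inspected with FASTQC, and Trimmomatic 0.35 trimmed the reads. The submitters' processing notes name HISAT2 2.1.0, SAMtools 1.2, HTSeq and the build GRCm38, per the labels. Not given in the sources used here are the annotation release, the strand setting and the handling of multi-mapped reads. The table the authors deposited holds raw gene counts as whole numbers, and 0 of its rows name no gene.

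Symbols were found for 24914 of 24983 gene identifiers. Coordinates and exon lengths are those of GENCODE M21 (GRCm38), and the lengths are of all annotated exons. Counts were filtered by edgeR's default rule (minimum count 10, minimum total 15), scaled by TMM, and tested in 1 quasi-likelihood model over all 12 libraries (edgeR 4.0.16, R 4.3.3). The scripts were tested on simulated data. Standard errors were derived from each log2 fold change and its F statistic and are approximate. The common biological coefficient of variation was 0.226, and replicates differed by at least 24.3 chi-square per degree of freedom. Alternatives were DESeq2 1.42.0 (Wald test), limma-voom (limma 3.58.1), other scalings and filters, fits of only the 2 groups compared, and leaving out each library.

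Members, gene lists and tests were chosen with earlier results of these data known. Of the members and list genes, 1 of each is not reported here by name. Members called in any comparison are given per library, and the 3 tested genes with the lowest p for vehicle over chow are named for each of the 17 other lists, with any called among the NASH-diet groups. Values per library are also given for Itgav, and values among the NASH-diet groups for Itga10. Both genes were chosen after their values were seen.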

Additional observations from a re-analysis of the deposited data

How the results depend on the processing

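No paired analysis was possible because replicate numbers were given in accession order and link no animals across groups. Counts of called members stayed within 1.5 times the reported count except as follows. Library size alone gave 23, 18 and 3 over chow for vehicle, OA and OA-NO2, with 39.8%, 26.1% and 7.79% of all genes called. With no filter on low counts, OA-NO2 gave 2 over chow (1.05% of all genes) and 3 over vehicle (0.604%). DESeq2 gave 3 for OA-NO2 over chow (5.28% of all genes), 4 for OA-NO2 over vehicle (Itga6 and Itga8 lower, Lama3 and Lamb3 higher) and 1 for OA-NO2 over OA. Limma-voom gave 7 for vehicle and 5 for OA over chow (15.6% and 5.31% of all genes). It lost the vehicle calls of Itga8, Itga9, Itgam, Lama2, Lamb1 and Lamb2 and the OA calls of Itga2, Itga4 and Itga6. Fits of only the 2 groups compared lost Lamb2 for vehicle and Itga4 and Itga6 for OA over chow. Leaving out 1 library gave 6 to 14, 4 to 12 and 1 over chow for vehicle, OA and OA-NO2. Of all genes, 8.12% to 15.4%, 2.35% to 15% and 0.101% to 0.48% were then called. Over vehicle it gave 0 members for both fatty acids, with 0% of all genes for OA and 0.00673% to 0.0271% for OA-NO2. For OA-NO2 over OA it gave 0 to 1 members, with 0.00673% to 0.875% of all genes. The cause of these moves was not tested.

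Signs turned only for values that were not called. With library size alone these were, as log2 fold changes, Itga4 (-0.135, OA-NO2 over vehicle), Itga8 (0.243, OA-NO2 over chow), Itga9 (-0.0177), Itgax (-0.0026) and Lamb3 (-0.0389, all OA over vehicle), Lamb2 (-0.0837, OA-NO2 over OA) and Ppbp (0.362, vehicle over chow). Limma-voom gave -0.114 for Itgax (OA over vehicle), and no filter gave -0.0023 for Lamb2 (OA-NO2 over OA). On leaving out 1 library at a time, log2 fold changes of OA over vehicle ran from -0.593 to 0.0923 for Itga6, -0.0689 to 0.253 for Itga9, -0.618 to 0.223 for Itgam, -0.252 to 0.419 for Itgax, -0.0191 to 0.358 for Itgb2 and -0.250 to 0.244 for Lamb3. Those of OA-NO2 over vehicle ran from -0.137 to 0.1005 for Itga2 and -0.034 to 0.170 for Itga4, those of OA-NO2 over chow from -0.248 to 0.141 for Itga8, and those of OA-NO2 over OA from -0.452 to 0.0227 for Lamb1 and -0.192 to 0.168 for Lamb2. For vehicle over chow they ran from -0.573 to 0.065 for Ppbp and -0.937 to 0.459 for Retnlg, a neutrophil gene. Groups of 3 and members with few counts, such as Itga2, Itgb4 and Itga10, limit the precision.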
